A study of Arabidopsis thaliana with 6 samples.

Results

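The transcript levels of 4 genes of plant energy signalling, bZIP63 and the kinase genes S6K1, CIPK20 and KINB1, were followed on all 6 ATH1 arrays of the series. They were chosen by name with earlier results of these arrays known, and each is measured by 1 of the 22746 probe sets tested, to which 13474 genes could be matched by name. For bZIP63, S6K1 and CIPK20 the values that led to the choice are the differences between genotypes described here, so these differences are given as a description, with no test, and the same restraint is kept for KINB1. Young leaves of Arabidopsis thaliana were compared between the accession Wassilewskija (wild type, Ws) and the T-DNA insertion line bzip63-2 (H3-2, FLAG_610A08), which was studied together with Ws as its wild type, with 3 arrays per genotype. Because bZIP63 itself read higher in the insertion line, its arrays are called mutant-labelled here. Both genotypes received the same treatment: soil-grown plants were harvested 25 d after germination, at the end of the night of a cycle of 10 h of light and 14 h of dark. RNA of each array came from a pool of 5 plants, and the 4 youngest leaves were taken according to the labels, to which the study's methods add the shoot apical meristem. A single insertion line represents the mutant on the arrays, and the position of the bZIP63 probe set with respect to the T-DNA is not given in the files used here.

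bZIP63 is a basic leucine zipper transcription factor of group C, which binds DNA as a dimer, often with a partner of group S1. It is a phosphorylation target of SnRK1, the plant counterpart of the yeast SNF1 and animal AMPK kinases, which is active when sugar and energy are scarce and favours catabolism. SnRK1 works as a complex of a catalytic alpha subunit (KIN10 or KIN11) with beta and gamma subunits. TOR is the opposing kinase, active when nutrients are plentiful, and acts on growth and translation in part through the S6 kinases. CIPK kinases form the SnRK3 family, relatives of SnRK1 that are activated by CBL calcium sensors.

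The 4 genes differed in the direction and size of their difference between genotypes. In the mutant-labelled arrays, bZIP63 had much higher and S6K1 moderately higher values than in Ws, CIPK20 had lower values, and KINB1 had overlapping values in the genotypes. Of the 4 genes, 2 lay higher in each mutant-labelled array than in any Ws array, against 6.81% of all probe sets tested, and 1 lay lower, against 3.23%. The choice of the genes used this contrast, so nothing is read from these shares. No probe set at all was called by limma over the whole array at an adjusted p under 0.05 (0.0%), whereas 1449 (6.37%) had an unadjusted p under 0.05, 4.33% higher and 2.04% lower. When only the 8242 brighter probe sets, of a mean over 3, were fitted, 57 (0.692%) passed the adjusted threshold. RNA came from whole pooled leaves, so a gene read lower because fewer cells express it cannot be told apart from less RNA per cell.

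The 6 arrays had medians between 2.61 and 2.62 on the log2 scale and correlations over all probe sets of 0.9896 to 0.993 between the genotypes. All arrays shared a lowest value of 2.469, a floor, and on each array 39.4% to 42.2% of probe sets had values within 0.05 of it. None of the 24 values of the 4 genes fell in that range. The array medians lay close to the floor, so they say little about the scale of brighter probe sets. By limma, 67.9% of the probe sets with an unadjusted p under 0.05 were higher in the mutant-labelled arrays. With the arrays centred on probe sets with a mean above 4, this share was 39.8%. RCA, the Rubisco activase gene of green leaves, was bright on all arrays, at 11.52 to 11.82. CLV3, which marks stem cells of the shoot meristem, and EXPA7, a root hair expansin gene, stayed at the floor on every array. SAG29 and SAG101, genes of senescing leaves, had means of at most 2.67 in either genotype, close to the floor. The other genes of these marker lists had no probe set named here.

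**Figure D1:**
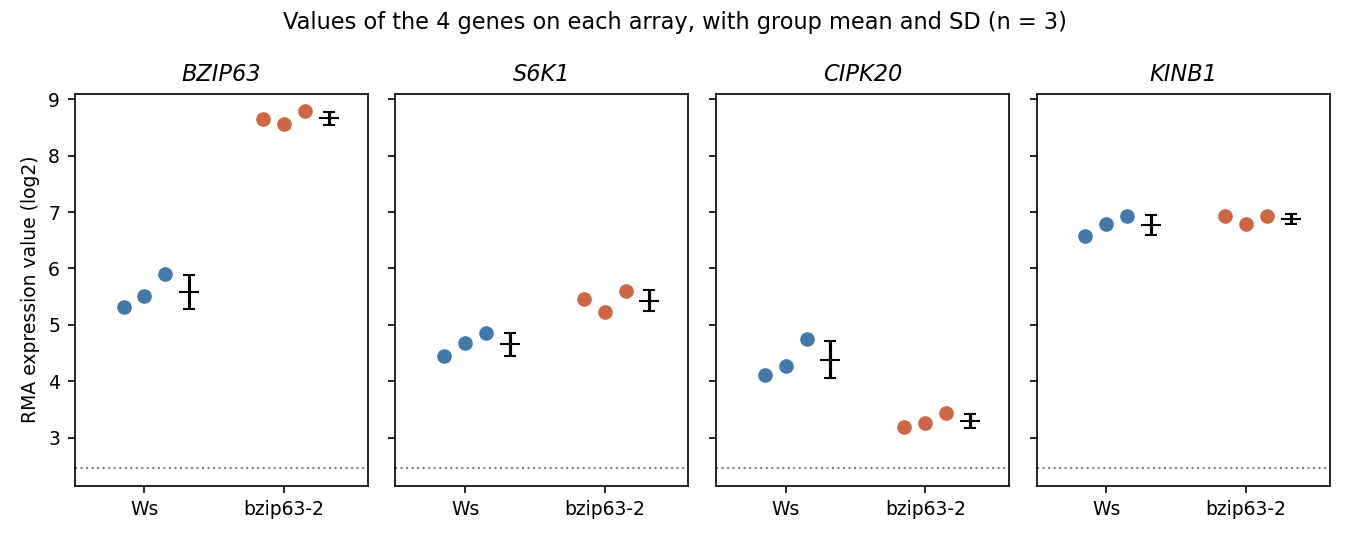
RMA expression value (log2) of each gene on each array, with points for the 3 Ws arrays (blue) and the 3 arrays labelled bzip63-2 (orange), black marks for the group mean and SD, and a dotted line for the floor at 2.469. The groups are apart for bZIP63 by 2.65, for S6K1 by 0.37 and for CIPK20 by 0.68, and they overlap for KINB1.

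The transcription factor gene bZIP63 (AT5G28770, probe set 245925_at) had log2 values of 5.316, 5.51 and 5.905 in the Ws arrays. In the mutant-labelled arrays its values were 8.647, 8.551 and 8.783. The 3 values of the T-DNA line were thus all high and close to each other, and the lowest of them exceeded the highest Ws value by 2.65. The group means were 5.58 ± 0.30 (SD, n = 3) and 8.66 ± 0.12 (SD, n = 3), a log2 difference of 3.08 (standard error 0.18), or 8.48-fold. It was the largest difference in size of all 22746 probe sets, and it was 10.3 times the larger of the group SDs. Each of the 9 pairings of a mutant-labelled array with a Ws array gave a positive difference, from 2.65 to 3.47. The gene that carries the insertion therefore read higher, not lower, in the arrays labelled as mutant, and every direction given here rests on those labels. The probe set measures the RNA it binds, and whether that RNA is a complete bZIP63 transcript was not tested.

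S6K1 (AT3G08730, probe set 258677_at) encodes a kinase that TOR activates and that phosphorylates ribosomal protein S6. Its log2 values were 4.444, 4.672 and 4.859 in Ws. The arrays labelled bzip63-2 gave 5.458, 5.231 and 5.601. All 3 of them lay above the Ws arrays, although the gap between the closest arrays was only 0.37, which is less than the range of the 3 Ws values (0.415). The means were 4.66 ± 0.21 (SD, n = 3) and 5.43 ± 0.19 (SD, n = 3), a log2 difference of 0.77 (standard error 0.15), or 1.71-fold. The difference ranked 64th by size among all probe sets, and it was 3.71 times the larger group SD. S6K2 (AT3G08720), the closely related gene beside it in the locus numbering, has no probe set named here, so cross-binding of S6K2 transcript to the S6K1 probe set was not tested.

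CIPK20 (AT5G45820, probe set 248910_at), a kinase gene of the SnRK3 family, went the other way. It was measured at 4.118, 4.281 and 4.754 in Ws. In the mutant-labelled arrays it was measured at 3.2, 3.268 and 3.44, so that these arrays were all low and the Ws arrays spread more widely. The means were 4.38 ± 0.33 (SD, n = 3) and 3.30 ± 0.12 (SD, n = 3), a log2 difference of -1.08 (standard error 0.19), or 2.12-fold lower. Over the 9 pairings of arrays the difference lay between -1.55 and -0.68. The lowest value stood 0.73 above the floor, nearer to it than any value of the other 3 genes. By size the difference ranked 29th among all probe sets.

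KINB1 (AT5G21170, AKINBETA1 in the annotation, probe set 246028_at) encodes a beta subunit of SnRK1, which holds the complex together. Its log2 values were 6.575, 6.794 and 6.923 in Ws and 6.933, 6.779 and 6.932 in the mutant-labelled arrays. The groups overlapped, since the lowest mutant-labelled array lay below 2 of the Ws arrays. The means were 6.76 ± 0.18 (SD, n = 3) and 6.88 ± 0.09 (SD, n = 3). Their difference of 0.12 on the log2 scale (standard error 0.11) was smaller than the SD within Ws, and it was positive in 7 of the 9 pairings and negative in 2.

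**Figure D2:**
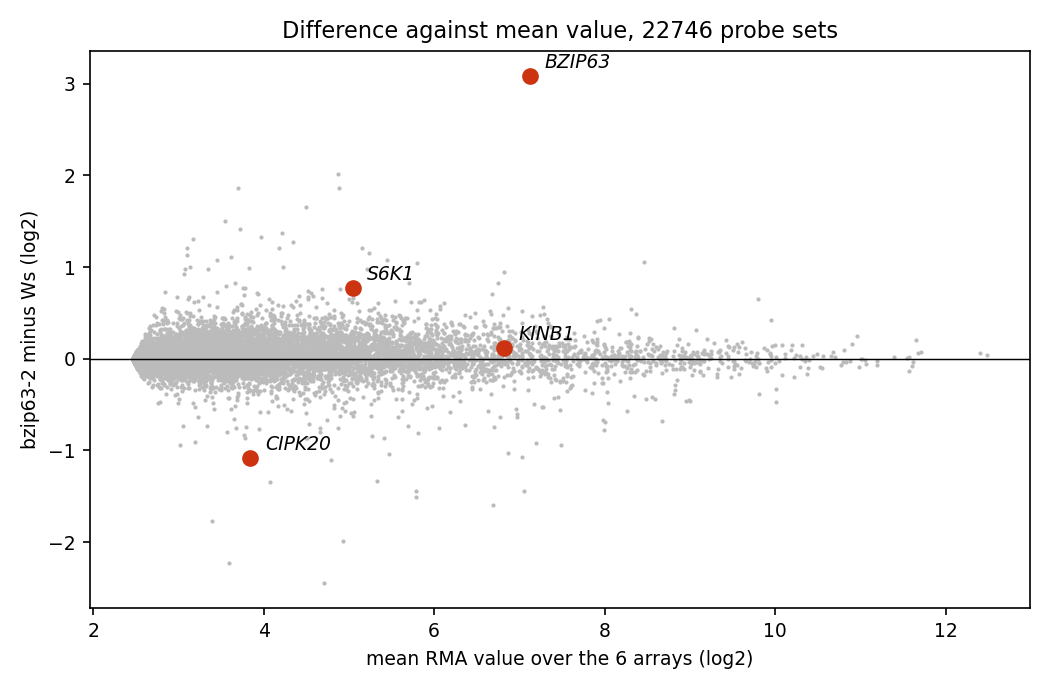
Difference bzip63-2 minus Ws (log2) against the mean over the 6 arrays (log2) for 22746 probe sets (grey), with the 4 genes in red. bZIP63 lies above all other points at 3.08, S6K1 at 0.77 and CIPK20 at -1.08 stand outside the main cloud, and KINB1 at 0.12 lies within it.

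Variation among the replicates had a feature in common, noticed after the values had been seen and so given as a description only. Within Ws, replicate 3 was the highest and replicate 1 the lowest array for all 4 genes, whether the gene was high or low in the T-DNA line, while 20.2% of 7781 brighter probe sets (a mean over 3, no tie among the Ws arrays) showed that arrangement. The range of the Ws values was larger than that of the mutant-labelled arrays for each gene, at 0.589 against 0.232 for bZIP63 and 0.636 against 0.240 for CIPK20. For S6K1 the ranges were nearly equal, at 0.415 and 0.370. A wider spread in Ws was not particular to these genes. Over all probe sets the arrays correlated at 0.9926 to 0.9943 within Ws and at 0.9954 to 0.9961 within the mutant-labelled group. Without Ws replicate 3 the difference became 3.25 for bZIP63, 0.87 for S6K1, -0.90 for CIPK20 and 0.20 for KINB1. Without Ws replicate 1 that of KINB1 became 0.02.

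The genes with the most similar profiles were sought by Pearson's r over the 6 arrays among probe sets of 1 annotated gene, a mean above 3 and a range of at least 0.5 times that of the gene itself. Because 3 of the 4 genes separate the genotypes, such an r mostly reflects that separation and is a description only. For bZIP63, 11 probe sets met the conditions and the closest was AT2G36130 (r = 0.995), at a mean of 3.67 in Ws and 5.32 in the mutant-labelled arrays. It was followed by AT4G27280 (r = 0.91), with a log2 difference of 2.02, and by STZ (AT1G27730, r = 0.85), a zinc finger repressor gene of stress responses also called ZAT10, with 1.21. These 2 genes varied more among the mutant-labelled arrays than bZIP63 did: STZ had 3.419, 4.374 and 3.336 there, with replicate 2 far above the others.

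S6K1 was most closely followed by AT4G35750 (r = 0.996), AT4G37550 (r = 0.99) and the aspartic protease gene APA1 (AT1G11910, r = 0.98) among 565 probe sets. These had smaller differences than S6K1 itself, of 0.51, 0.44 and 0.35 on the log2 scale. CIPK20 was most closely followed by AT1G54740 (r = 0.99), the BTB domain gene AT2G30600 (r = 0.98) and AT1G68440 (r = 0.97) among 205. All 3 were lower in the mutant-labelled arrays, with log2 differences of -1.44, -2.44 and -0.63. For KINB1 the closest were AT3G14750 (r = 0.99), AT3G01560 (r = 0.99) and AT1G78140 (r = 0.96) among 3604, whose differences between genotypes were at most 0.16.

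The surrounding pathway was examined in 5 lists of SnRK1 subunits and upstream kinases, TOR components and targets, group C and S1 bZIP factors, CIPK kinases and CBL sensors. Of their 65 genes other than the 4 above, 7 had a probe set named by the platform annotation. These were 2 SnRK1 subunit genes, 3 TOR genes and 2 bZIP genes. None of the 25 other CIPK genes and none of the 10 CBL genes had such a probe set, so the counts below do not cover those 2 lists. None of the 7 was called by limma over all probe sets, 0 had an unadjusted p under 0.05, against 6.37% of all probe sets, and for 0 of the 7 were the genotypes apart on all arrays, against 10.0%. With 7 genes, counts of 0 are close to these shares and say nothing particular of the pathway. Their median log2 difference was 0.0027, beside 0.0 over all probe sets, and their differences ranged from -0.22 to 0.12. Only 3 of the 7 had a mean above 3, so the median mostly reflects genes near the floor.

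Among the SnRK1 subunits, the beta subunit gene KINB2 (AT4G16360) had 3.311, 3.353 and 3.635 in Ws and 3.642, 3.513 and 3.518 in the mutant-labelled arrays, a log2 difference of 0.12 (standard error 0.10, adjusted p = 0.74 from limma). KINB3 (AT2G28060), the third beta subunit gene, had 3.778, 3.912 and 4.132 in Ws and 3.792, 3.834 and 3.862 in the mutant-labelled arrays, a log2 difference of -0.11 (standard error 0.10, adjusted p = 0.74). For all 3 beta subunit genes, KINB1 included, the difference was thus smaller than the SD of the Ws arrays. Among the TOR genes, RAPTOR1 and RAPTOR2, which encode the subunit that presents substrates to TOR, had means of 2.56 to 2.665 in both genotypes, near the floor, as did PDK1.2 (AT3G10540), at 2.61 in each. A change in these 3 genes was hardly measurable at such a signal. The genes of the catalytic subunits KIN10 and KIN11 and of TOR had no probe set named here.

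The bZIP partners gave 1 bright probe set. bZIP53 (AT3G62420), of group S1 and a known dimer partner of group C factors, had 5.597, 5.709 and 6.044 in Ws. In the mutant-labelled arrays it had 5.493, 5.683 and 5.508, a log2 difference of -0.22 (standard error 0.14, adjusted p = 0.74 from limma), and the groups overlapped. bZIP44 (AT1G75390) read 2.47 on all 6 arrays. A wider look at all bZIP genes that the annotation names by that word, chosen after values had been seen, held 22 genes besides bZIP63, of which 7 had a mean above 3. Their differences ranged from -0.23 for BZIP61 to 0.18 for BZIP60 and AT2G40620, all far below that of bZIP63. bZIP63 was chosen with its difference known, and most of the 22 were too dim to show a fall, so nothing is read from this contrast. Only BZIP28 had an unadjusted p under 0.05 (0.041 by limma, adjusted p = 0.74), against 6.37% of all probe sets. BZIP28 and AT2G40620 lay higher in each mutant-labelled array than in any Ws array (6.81% of all probe sets).

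A further 4 genes of the 5 lists are named here only by the study's table of changed genes, and so were selected on these same arrays, which makes their direction no independent evidence. Within the CIPK family 3 of them were higher in the mutant-labelled arrays, opposite to CIPK20. CIPK1 (AT3G17510) had means of 5.69 ± 0.16 (SD, n = 3) in Ws and 6.22 ± 0.07 in the mutant-labelled arrays, CIPK7 (AT3G23000) 4.79 ± 0.34 and 5.40 ± 0.16, and CIPK10 (AT5G58380) 2.88 ± 0.07 and 3.12 ± 0.06. The groups did not overlap for any of the 3 (6.81% of all probe sets lay higher in this way), with log2 differences of 0.54, 0.61 and 0.24. Selection on these arrays favours such a separation, so nothing is read from it. PDK1 (AT5G04510), a kinase that can activate S6 kinases, had 3.979, 3.931 and 3.762 in Ws and 3.566, 3.444 and 3.415 in the mutant-labelled arrays, a log2 difference of -0.42 (standard error 0.08). S6K1 and PDK1 therefore had differences of opposite sign in the same arrays. By limma over all probe sets, 0 of these 4 had an adjusted p under 0.05, as for 0.0% of all probe sets. All 4 had an unadjusted p under 0.05, against 6.37% of all probe sets. The study chose its changed genes at a P-value under 0.05 on the same arrays, so this count was fixed by the choice and is no result.

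**Figure D3:**
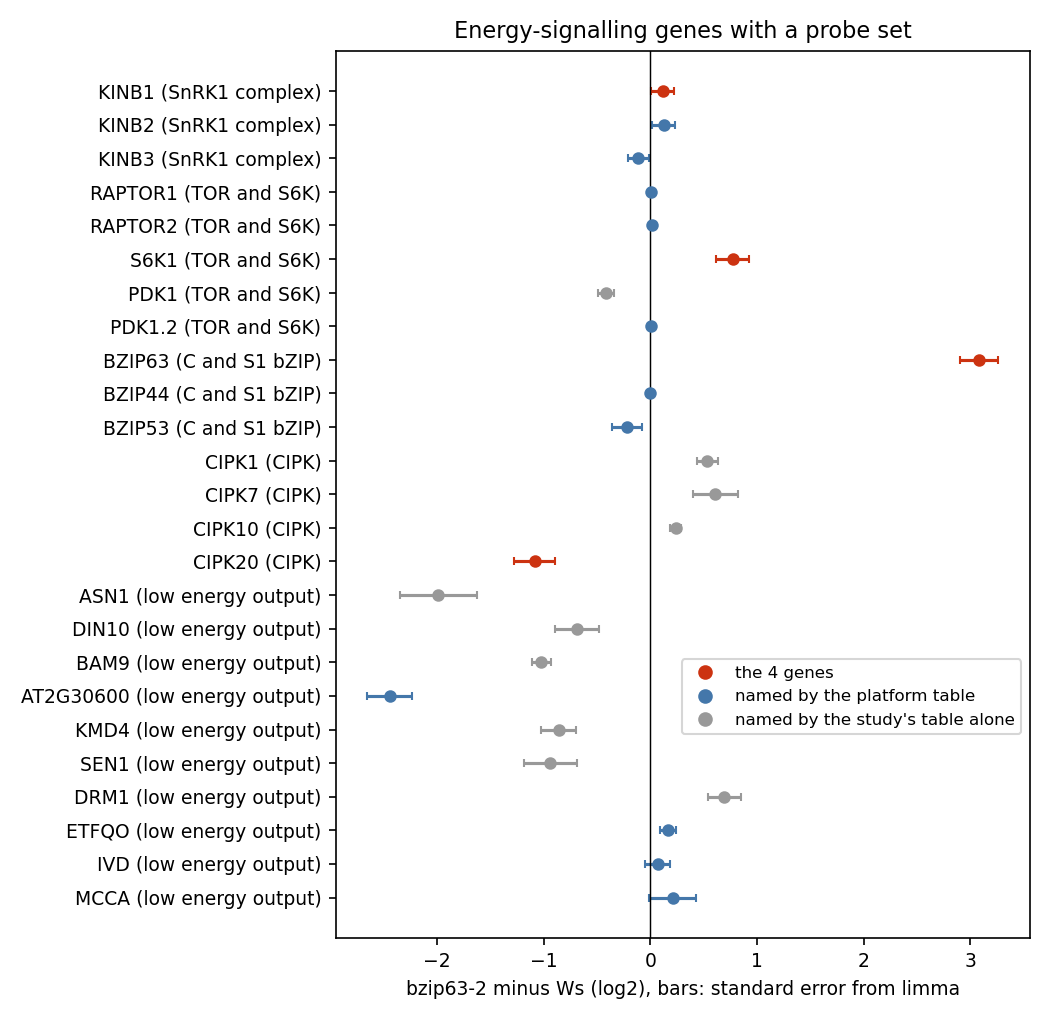
Difference bzip63-2 minus Ws (log2, point) with its standard error from limma (bar) for the 4 genes (red), for other listed genes named by the platform annotation (blue) and for those named by the study's table alone (grey). The blue points of the signalling lists lie between -0.22 and 0.12, while bZIP63 lies at 3.08 and CIPK20 at -1.08.

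Transcripts known to answer to SnRK1 and to group C and S1 bZIP factors are the output side of this pathway, and 10 of 15 listed had a probe set. The 4 named by the platform annotation gave 1 gene with an unadjusted p under 0.05 by limma (6.37% of all probe sets), AT2G30600. The study also lists this gene as changed on these same arrays, so the count is no result. AT2G30600 had a log2 difference of -2.44 by its brighter probe set and -0.94 by its dimmer one. The other 3 belong to the breakdown of branched-chain amino acids. MCCA (AT1G03090), a methylcrotonyl-CoA carboxylase subunit gene, had a log2 difference of 0.21 (standard error 0.22), IVD (AT3G45300), an isovaleryl-CoA dehydrogenase gene, 0.07 (standard error 0.12) and ETFQO (AT2G43400), which passes the electrons on to the respiratory chain, 0.16 (standard error 0.07). Of these 3, only ETFQO had arrays that did not overlap (6.81% of all probe sets lay higher in this way), by a gap between 3.419 in Ws and 3.444 in the mutant-labelled arrays. The 6 named by the study's table alone, and so chosen on these arrays, were 5 with lower values, among them ASN1 at -1.99 and BAM9 at -1.02, and DRM1 with a higher value, at 0.69.

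The genes beside each of the 4 genes on the chromosome were compared too, in the gene order of the TAIR10.1 annotation, to see whether values near the insertion or near a gene that differed also differed. This comparison was added after the values of the 4 genes had been seen. Of the 20 nearest protein-coding genes, 10 on each side, 8 had a named probe set around bZIP63, 11 around S6K1, 7 around CIPK20 and 4 around KINB1. None of these neighbours was called by limma at an adjusted p under 0.05. Around S6K1, CIPK20 and KINB1 none had an unadjusted p under 0.05 either, and their differences lay between -0.10 and 0.20. Most of the neighbours of CIPK20 and several of S6K1 read near the floor of 2.469, so these counts say little for them. Around bZIP63, 1 of the 8 had an unadjusted p under 0.05, against 6.37% of all probe sets.

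Around bZIP63 the differences lay between -0.32 and 0.11, none near the 3.08 of bZIP63 itself. For 2 of the 8 neighbours the genotypes were apart on all arrays, both genes being lower in the mutant-labelled arrays, against 3.23% of all probe sets. The width of the window was not planned and 8 genes are few, so nothing is read from the counts around bZIP63. AT5G28750, the adjacent protein-coding gene on the lower-numbered side, had a mean of 7.34 in Ws and 7.15 in the mutant-labelled arrays, a log2 difference of -0.19 (standard error 0.07). GME (AT5G28840), the GDP-mannose epimerase gene of vitamin C and cell wall synthesis, lies 6 genes away on the other side. It had means of 7.75 and 7.44, a log2 difference of -0.32 (standard error 0.09, unadjusted p = 0.023 and adjusted p = 0.62 from limma). Most of the other neighbours with a probe set had means of at most 2.49 in both genotypes, near the floor of 2.469. A lower value could hardly have been measured there. The genes with no probe set named here were not analysed.

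**Figure D4:**
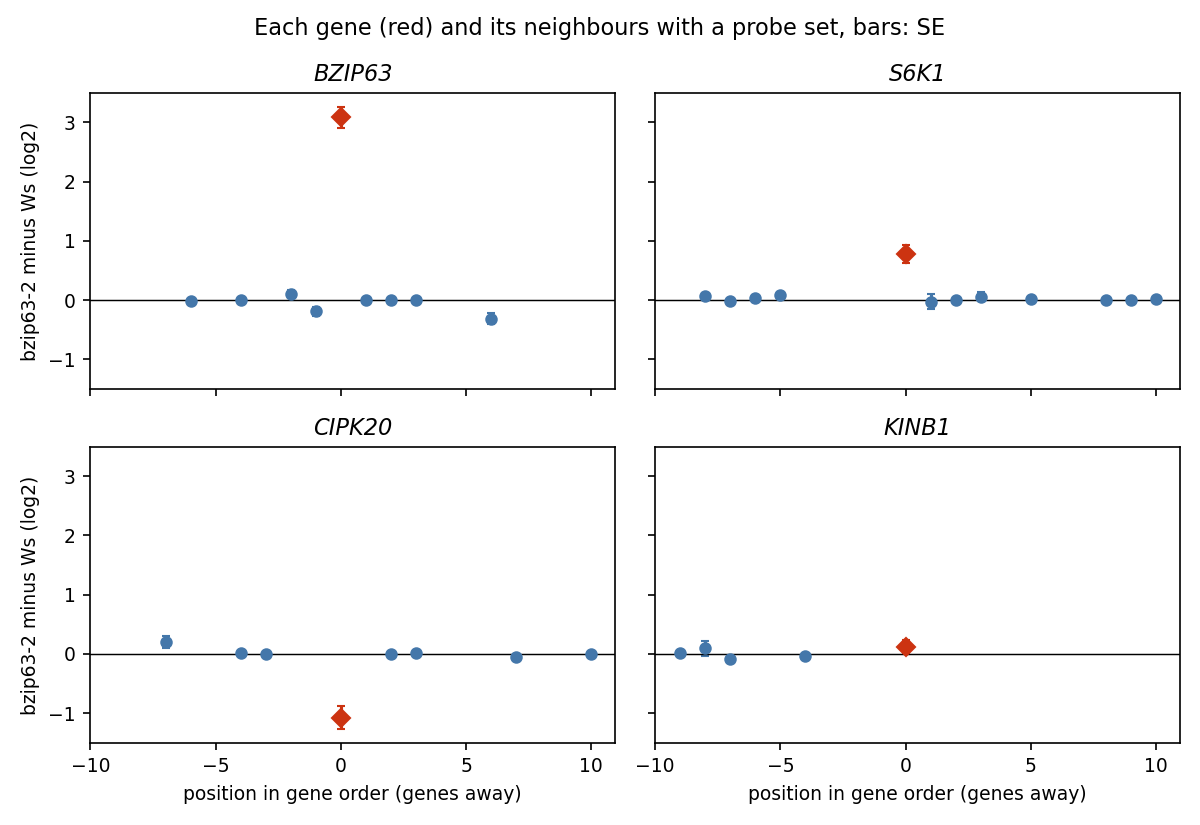
Difference bzip63-2 minus Ws (log2, with its standard error) for each of the 4 genes (red diamond) and for neighbouring genes with a named probe set (blue), by position in gene order from 10 genes before to 10 after. Neighbours of all 4 genes stay between -0.32 and 0.20, and many of them read near the floor of 2.469 in both genotypes.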

How the data were processed

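The authors ran RMA normalisation (Expression Console, Affymetrix) and deposited 1 log2 value per probe set and array, with software versions not stated, and the log2 scale was inferred from the range of values. The authors' analysis used affylmGUI, and the fold changes and p-values in their table of changed genes were not used. From the deposited log2 values, 64 control probe sets of 22810 were left out and the mutant-labelled arrays were set against Ws in limma 3.58.1 (R 4.3.3; lmFit, then eBayes), with no replicate block and no filter, and Benjamini-Hochberg adjustment over 22746 probe sets at a threshold of 0.05. Standard errors are those of limma. For a single gene the smallest p of an exact permutation test is 0.1 in this design, and the number of arrays limits the precision.

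The platform annotation named 13513 probe sets with 1 gene and 503 with several and did not list 8730; 13436 received a locus through the TAIR10.1 table of RefSeq genes. The study's table named 188 others, bZIP63, S6K1 and CIPK20 among them. A gene with several probe sets is given by the brightest. The 4 genes and all lists were chosen with earlier results of these arrays known. Named were the 4 genes, listed genes with a probe set and the 3 most similar profiles of each of the 4. AT5G28750, GME, BZIP28, BZIP60, BZIP61 and AT2G40620 were named after their values had been seen. Alternatives covered the call threshold, a filter on dim probe sets, the prior of the variances, weighting of arrays, the scaling, a replicate block and the removal of single arrays.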

Additional observations from a re-analysis of the deposited data

How the results depend on the processing

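Over all probe sets limma called 0 at an adjusted p under 0.05, against 1449 at an unadjusted p under 0.05, 57 with means of 3 or less left out, 36 with arrays centred on probe sets with a mean above 4, and 0 to 34 with an array left out, the highest without Ws replicate 3. The trend and robust priors, array weights, quantile normalization repeated and the replicate block also gave 0. Of the probe sets with an unadjusted p under 0.05, 67.9% were higher in the arrays labelled bzip63-2, against 54.6% with quantile normalization repeated and 39.8% with the centred arrays; the cause was not tested. The 7 other energy-signalling genes gave 0 calls under each alternative, an unadjusted p under 0.05 included, although only 3 of the 7 were still tested with means of 3 or less left out. Under quantile normalization, centring and each array left out, the differences of the 4 genes kept their sign and moved by less than the larger group SD. For bZIP63, S6K1 and CIPK20 all 9 pairings of arrays had the same direction, so leaving out an array could not reverse their sign. With an array left out the differences ranged from 2.95 to 3.25 for bZIP63 and from 0.66 to 0.87 for S6K1. For CIPK20 they ranged from -1.22 to -0.90 and for KINB1 from 0.02 to 0.20. Over all probe sets, same-numbered arrays of the genotypes deviated from their group means with correlations of -0.02 to 0.05. Differently numbered arrays gave -0.09 to 0.08, so no pairing by number was visible, but so few arrays cannot exclude one. Each number holds an array of each genotype, so the replicate block cannot move the differences of 3.08, 0.77, -1.08 and 0.12. Their standard errors were 0.12, 0.12, 0.11 and 0.11 with the block, against 0.18, 0.15, 0.19 and 0.11 without it. Signals near the floor of 2.469 limit what can be said of RAPTOR1, RAPTOR2, PDK1.2 and bZIP44.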
